A study of Mus musculus with 4 samples.

Results

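The genes described here are 7 mouse carboxylesterases, Ces1d, Ces1f and Ces1g of the Ces1 family and Ces2a, Ces2c, Ces2e and Ces2g of the Ces2 family, out of 46095 gene symbols in the deposited count table and 20 symbols of the Ces1 to Ces5 families. They were taken by symbol from a list that had been selected on their measured values in the comparison of Esr2-KO with WT. Their differences between the genotypes are therefore given as a description, with standard errors and without p-values. The samples were colon of C57BL/6 mice at postnatal day 21. A pair of libraries came from wild-type mice (WT) and a pair from mice labelled Esr2-KO, or Esr2-/-, labelled as lacking the gene of estrogen receptor β, and no treatment is given for either group. The design text speaks of triplicates, and 2 libraries of each genotype were analysed here. The sources used here give neither the part of Esr2 that was removed nor the stretch of colon or the hour of collection. Whether each library is a separate animal is not stated in the labels. Errors and p-values thus rest only on the spread between these libraries, estimated partly across genes, and that spread may be technical.

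Carboxylesterases are serine hydrolases held in the lumen of the endoplasmic reticulum, where they split ester bonds of drugs, of xenobiotics and of lipids such as triglycerides and cholesteryl esters. Enzymes of the Ces1 family are best known from liver and adipose tissue, and enzymes of the Ces2 family from the intestinal epithelium, where they act on ester prodrugs and on acylglycerols. In the mouse both families were multiplied by tandem duplication, so that neighbouring genes encode closely similar enzymes.

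On chromosome 8 of GRCm38 (GENCODE M21 annotation) the Ces1 genes form a cluster of 359.5 kb at chr8:93020214-93379725, all on the minus strand. The Ces2 genes form a cluster of 287.2 kb at chr8:104734003-105021178, all on the plus strand. The Ces1 members lie at chr8:93166068-93197838 (Ces1d), chr8:93256236-93279747 (Ces1f) and chr8:93302369-93337308 (Ces1g), each with 14 exons. The Ces2 members lie at chr8:104734003-104741634 (Ces2a), chr8:104847068-104854483 (Ces2c), chr8:104926260-104934672 (Ces2e) and chr8:104961718-104969537 (Ces2g), each with 12 exons. The counts cover whole genes, exons of the UTRs included where the annotation used for counting held them.

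The stretch of coding sequence around the catalytic serine shows how alike the 7 genes are, and is printed here because the counts of near-identical genes can be mixed up. Each line gives 60 bases of the GENCODE M21 transcript, 5′ to 3′, with the 18 bases that encode the active-site serine and its neighbours in capitals. Counted from the first base of the start codon, the stretch runs from 634 to 693 in the Ces1 members, 652 to 711 in Ces2a, 661 to 720 in Ces2c, 655 to 714 in Ces2e and 658 to 717 in Ces2g.
Ces1d: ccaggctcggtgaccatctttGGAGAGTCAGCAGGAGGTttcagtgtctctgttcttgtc
Ces1f: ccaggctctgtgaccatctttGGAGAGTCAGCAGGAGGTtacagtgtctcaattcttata
Ces1g: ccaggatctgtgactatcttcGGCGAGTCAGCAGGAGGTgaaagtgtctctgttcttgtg
Ces2a: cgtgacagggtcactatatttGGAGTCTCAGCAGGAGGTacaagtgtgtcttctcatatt
Ces2c: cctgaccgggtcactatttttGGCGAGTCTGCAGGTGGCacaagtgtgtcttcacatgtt
Ces2e: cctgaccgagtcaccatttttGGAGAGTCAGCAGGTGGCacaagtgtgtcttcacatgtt
Ces2g: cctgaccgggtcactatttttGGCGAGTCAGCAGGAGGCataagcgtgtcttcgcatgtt
Against Ces2c, the stretch differs at 4 bases in Ces2e, 5 in Ces2g and 11 in Ces2a, and at 20, 23 and 20 bases in Ces1d, Ces1f and Ces1g. Within the capitals Ces2a differs from Ces2c at 6 bases, more than any other member, where the rest differ at 2 to 4. Over the whole coding sequence, the Ces1 members are 74.1% to 81.5% identical to each other, the Ces2 members 81.3% to 85.2%, and members of different families 54.7% to 57.4%.

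Identity bears on how surely counts belong to 1 gene. Of all 50-base stretches of the representative transcript, 1.28%, 1.60% and 1.67% also occur in transcripts of another gene for Ces1d, Ces1f and Ces1g, and 3.36% and 3.95% for Ces2e and Ces2g. The share is 22.2% for Ces2a, with 20.9% of its stretches found in the pseudogene Gm7208. It is 42.2% for Ces2c, with 38.2% found in the pseudogene Ces2d-ps and 18.9% in the pseudogene Gm8798. The sources used here do not say how reads that match several genes were treated, so the values of Ces2c, and to a lesser degree of Ces2a, are uncertain. Gm7208 had counts of 0 and 10 (WT) and of 1 and 1 (Esr2-KO), and Gm8798 had 42 and 52 against 39 and 27.

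The sequence upstream of the start is shown because most of the members were lower in Esr2-KO and Ces2g was higher. RefSeq (GRCm38.p6) promoter windows were available for 5 of the 7 members and are printed as the 250 bases before the start, 5′ to 3′ in the gene's own direction: Ces1g at chr8:93337210-93337459 (minus strand), and on the plus strand Ces2a at chr8:104733753-104734002, Ces2c at chr8:104846818-104847067, Ces2e at chr8:104926010-104926259 and Ces2g at chr8:104961468-104961717. Capitals in the Ces2 windows mark CAATNNGAACTT, where N is any base. Capitals in the Ces1g window mark AGATAA and TATAAA, read on the other strand. The RefSeq start of Ces1g lies inside the gene as GENCODE M21 gives it, so that the last 99 bases of its window, the TATAAA match included, fall within the GENCODE gene.
Ces1g: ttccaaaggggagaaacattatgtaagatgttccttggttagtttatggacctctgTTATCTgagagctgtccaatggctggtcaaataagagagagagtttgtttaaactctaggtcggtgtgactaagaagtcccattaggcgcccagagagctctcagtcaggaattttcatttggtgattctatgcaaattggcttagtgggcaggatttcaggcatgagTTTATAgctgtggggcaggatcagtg
Ces2a: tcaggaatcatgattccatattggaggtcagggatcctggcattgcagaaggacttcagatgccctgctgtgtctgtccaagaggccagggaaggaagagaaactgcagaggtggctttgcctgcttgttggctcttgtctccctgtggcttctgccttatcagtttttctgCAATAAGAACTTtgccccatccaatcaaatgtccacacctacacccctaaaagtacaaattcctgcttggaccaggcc
Ces2c: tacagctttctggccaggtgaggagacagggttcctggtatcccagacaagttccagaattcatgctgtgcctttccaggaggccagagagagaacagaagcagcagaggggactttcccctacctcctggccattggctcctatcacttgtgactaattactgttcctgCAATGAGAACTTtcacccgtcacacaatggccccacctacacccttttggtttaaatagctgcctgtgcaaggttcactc
Ces2e: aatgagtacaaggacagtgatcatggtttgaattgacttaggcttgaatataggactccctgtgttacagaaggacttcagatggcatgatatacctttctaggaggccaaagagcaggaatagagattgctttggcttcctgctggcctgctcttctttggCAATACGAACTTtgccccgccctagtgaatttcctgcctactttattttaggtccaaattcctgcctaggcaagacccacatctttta
Ces2g: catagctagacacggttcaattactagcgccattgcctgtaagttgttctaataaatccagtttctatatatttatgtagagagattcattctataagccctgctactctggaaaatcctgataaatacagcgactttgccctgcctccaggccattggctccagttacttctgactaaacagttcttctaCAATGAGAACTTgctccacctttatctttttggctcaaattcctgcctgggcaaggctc
CAATNNGAACTT was the longest block with at most 2 variable letters found in all 4 Ces2 member windows, and was picked after the sequences were seen. It begins at -78 in Ces2a, -80 in Ces2c, -88 in Ces2e and -59 in Ces2g, and occurs in 27 of 32851 promoter windows of this length (0.082%). Ces2g, the member that was higher in Esr2-KO, holds it as do the 3 Ces2 members that were lower. Searched on both strands, the estrogen response element GGTCANNNTGACC (0.064% of all windows), the HNF4 motif CAAAGTCCA (0.384%) and the HNF1 motif GTTAAT (6.43%) had no match in the 5 windows. The nuclear receptor hexamer AGGTCA (14.0% of all windows), which overlaps the estrogen response element, matched Ces2a at -226. The GATA motif AGATAA (9.99%) matched Ces1g at -194 and Ces2g at -38, and the TATA motif TATAAA (12.4%) matched Ces1g at -26. A match is a description of these letters and not a site of binding. Over the 250 bases, Ces2a and Ces2c are 64.6% identical, the other Ces2 pairs 50.5% to 53.2%, and Ces1g and the Ces2 windows 41.2% to 44.1%.

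The 4 libraries held 30826790 to 33709643 counts. Values are CPM, counts relative to the TMM-scaled library total, with WT 1 and WT 2 before Esr2-KO 1 and Esr2-KO 2. Esr2 itself had counts of 21 and 13 (WT) and of 6 and 16 (Esr2-KO); its log2 fold change was -0.32 ± 0.77 and its adjusted p 0.854 in edgeR, and the direction turned without WT 1 (0.04) and without Esr2-KO 1 (0.35). These counts cover the whole gene and do not check the genotype labels. The library Esr2-KO 2 stood apart: 16 pancreatic acinar markers summed to 155, 181 and 857 CPM in WT 1, WT 2 and Esr2-KO 1 and to 211890 CPM in Esr2-KO 2, with Prss2 and Try4 at 0 in all 4. The carboxylesterase results were therefore also computed without it and without the acinar genes. Of the 14 acinar markers tested, 0 had an adjusted p under 0.05 in edgeR. Both Esr2-KO libraries lay above both WT libraries in 14 of 14, beside 27.0% of all genes tested. Leaving out Esr2-KO 2 thus does not remove this difference between the genotypes, and its cause was not tested. The median log2 fold change of the 7 members was -1.38 with all 4 libraries, -1.31 without Esr2-KO 2 and -1.38 without the acinar genes. It was -1.55 without WT 1, -0.91 without WT 2 and -1.35 without Esr2-KO 1.

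Esr2-KO colon held less mRNA of 6 of the 7 carboxylesterases and more of the remaining one. In both Esr2-KO libraries Ces1d, Ces1f, Ces1g, Ces2a, Ces2c and Ces2e lay below both WT libraries, and Ces2g lay above them. Of all 17169 genes tested, 27.7% had both Esr2-KO libraries below both WT libraries, and 27.0% had them above. Fold differences, taken from the log2 fold changes of edgeR's fit, ran from 1.53-fold lower for Ces2c to 13.4-fold lower for Ces1g. Ces2g was 2.02-fold higher. Log2 fold changes are Esr2-KO minus WT, from edgeR's fit over all genes tested, ± SE with n = 2 per group. The SE is the absolute log2 fold change over the square root of the test's F value, whose variance edgeR moderates across genes. In bulk tissue, fewer cells that make a transcript and less transcript per cell cannot be told apart, and neither can the genotype and a difference in position along the colon or in hour of collection.

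**Figure D1:**
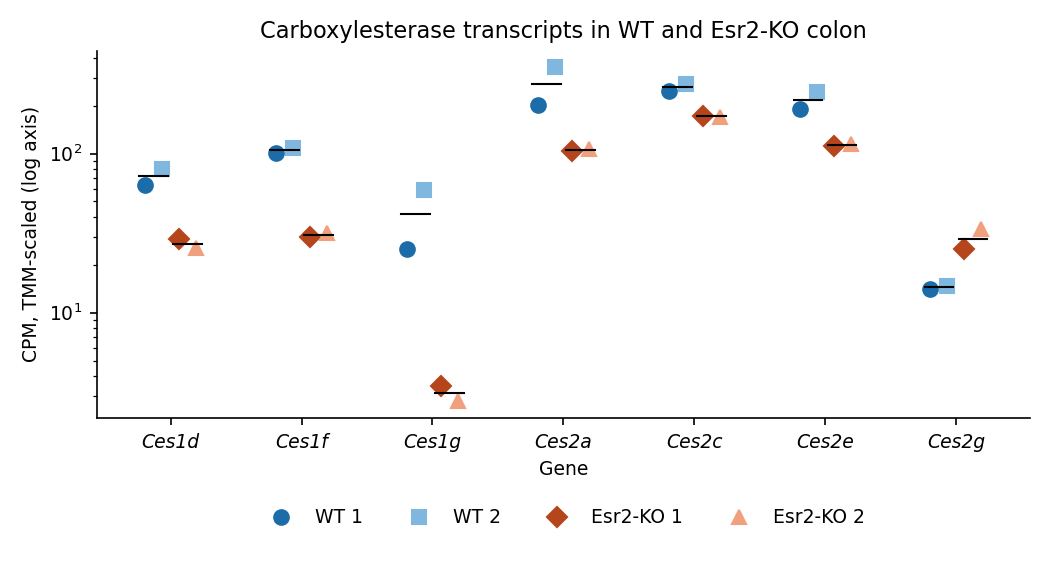
CPM of the 7 carboxylesterases (log axis) in each of the 4 libraries, with a black line at the mean of each genotype. Both Esr2-KO points lie below both WT points for every gene except Ces2g, and the widest gap is that of Ces1g, from 25.1 CPM in WT 1 to 3.45 CPM in Esr2-KO 1.

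Ces1g, an esterase studied in liver lipid metabolism, had the largest difference of the members. WT colon held 25.1 and 58.7 CPM (911 and 2043 counts), against 3.45 and 2.77 CPM in the Esr2-KO libraries (118 and 73 counts), a log2 fold change of -3.74 ± 0.42. The WT libraries differed 2.34-fold from each other, the widest spread within a genotype among the members, and the lower WT value was still 7.27 times the higher Esr2-KO value. Esr2-KO counts were far above the floor of 3 counts, which corresponds to 0.0826 to 0.114 CPM, so the transcript remained detectable. Leaving out WT 2 gave -2.99 and leaving out WT 1 gave -4.23, so that the size depends on which WT library is used.

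Ces1f and Ces1d, both triglyceride hydrolases described in liver, and Ces1d also in adipose tissue, had smaller differences and closer replicates. Ces1f had 100.8 and 108.7 CPM in the pair of WT libraries, with 29.7 and 31.5 CPM in the Esr2-KO pair, a log2 fold change of -1.77 ± 0.11. The replicates of Ces1f differed by at most 1.08-fold, and the groups were separated by a gap of 3.20-fold. Ces1d measured 63.9 and 79.7 CPM in the WT libraries against 28.9 and 25.5 CPM in the Esr2-KO libraries, a log2 fold change of -1.40 ± 0.15. Its closest libraries were 2.21-fold apart.

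Ces2a, Ces2c and Ces2e, the abundant Ces2 enzymes of this colon, were all lower in Esr2-KO, by less than Ces1f and Ces1g. Ces2a had 202 and 348 CPM in the pair of WT libraries, with 104 and 107 CPM in the Esr2-KO pair, a log2 fold change of -1.38 ± 0.25. WT 2 held 1.72 times the Ces2a of WT 1, and without WT 2 the log2 fold change was -0.91. Ces2e measured 189 and 243 CPM in the WT libraries against 111 and 116 CPM in the Esr2-KO libraries, a log2 fold change of -0.93 ± 0.15. Ces2c, a hydrolase of acylglycerols and of ester drugs in the gut, had 248 and 274 CPM in the pair of WT libraries, with 171 and 171 CPM in the Esr2-KO pair, a log2 fold change of -0.61 ± 0.12. Ces2c thus had the smallest difference of the 7, with a gap of 1.45-fold between the closest libraries, and it is also the gene whose reads are hardest to assign.

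Ces2g went the other way. WT colon held 14.2 and 14.8 CPM (514 and 515 counts), against 24.97 and 33.5 CPM in the Esr2-KO libraries (854 and 883 counts), a log2 fold change of 1.01 ± 0.18. The WT libraries nearly coincided, and the closest libraries of the groups were 1.69-fold apart. Ces2g lies in the same cluster and on the same strand as the 3 Ces2 members that were lower, and its coding sequence is 85.2% identical to that of Ces2c. Only 3.95% of its 50-base stretches occur in other transcripts. Without Esr2-KO 2 its log2 fold change was 0.79 and without Esr2-KO 1 it was 1.21.

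With the threshold at 0.05 on the p of edgeR's quasi-likelihood test after Benjamini-Hochberg adjustment, 5 members passed as lower and Ces2g as higher, and Ces2c did not pass. Of all genes tested, 1.39% passed as lower and 1.30% as higher. Since the members were chosen on this comparison, nothing is read from their counts against these shares or those of the libraries' order. The median log2 fold change was -1.38 over the 7 members and -0.0031 over all genes tested. With library totals in place of TMM the median of all genes moved to -0.17 and that of the members to -1.54. Ces2g no longer passed without WT 1, without WT 2 or without Esr2-KO 2, and Ces2e no longer passed without WT 2.

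**Figure D2:**
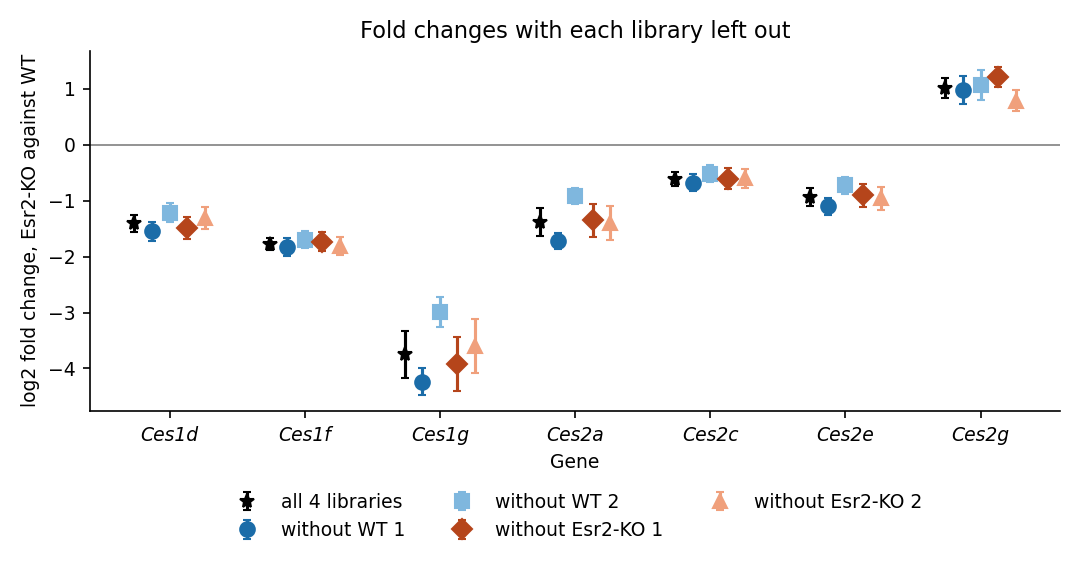
Log2 fold change of each carboxylesterase, Esr2-KO against WT, with all 4 libraries (star) and with each library left out in turn; bars are standard errors of the fit. No direction turned, which groups that do not overlap fix nearly in advance. Leaving out WT 2 brought Ces1g from -3.74 to -2.99 and Ces2a from -1.38 to -0.91.

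Per kb of representative transcript, the scale on which genes can be compared, the Ces2 enzymes Ces2a, Ces2c and Ces2e led in every library. Ces2a stood at 103 and 178 CPM per kb in WT and at 53.1 and 54.8 in Esr2-KO. Ces2c stood at 126 and 139 CPM per kb in WT and at 87.0 and 86.7 in Esr2-KO. Ces2a and Ces2c changed places between WT 1 and WT 2, so that their levels in WT do not differ beyond the spread of the libraries, whereas in Esr2-KO Ces2c led Ces2a in both. Ces2e followed with 70.2 and 90.2 CPM per kb in WT and 41.1 and 42.8 in Esr2-KO. Of the Ces1 members, Ces1f stood at 52.3 and 56.4 CPM per kb in WT and Ces1d at 31.9 and 39.8. In Esr2-KO the levels of Ces1f and Ces1d came close, at 15.4 and 16.3 against 14.4 and 12.7 CPM per kb. Ces1g (10.5 and 24.6 CPM per kb) lay above Ces2g (4.95 and 5.18) in both WT libraries, and Ces2g (8.73 and 11.7) lay above Ces1g (1.44 and 1.16) in both Esr2-KO libraries. The ratio of the highest to the lowest member level widened from 25.4 and 34.3 in WT to 60.2 and 74.8 in Esr2-KO.

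Summed by family, the Ces1 members summed to 190 and 247 CPM in WT, against 62.1 and 59.7 CPM in the knockout libraries, with a 3.58-fold lower mean. The Ces2 members summed to 654 and 880 CPM in WT, against 412 and 427 CPM in the knockout libraries, with a 1.83-fold lower mean. All 7 together went from 843 and 1127 CPM to 474 and 487 CPM, a 2.05-fold lower mean.

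Lower and higher members together shifted the make-up of carboxylesterase transcripts. The Ces1 family took 23.3% and 22.3% of all Ces1 and Ces2 counts in WT (95% Wilson intervals 22.8 to 23.8 and 21.9 to 22.7) and 15.5% and 14.7% in Esr2-KO (14.95 to 16.0 and 14.1 to 15.3). Ces2g took 1.63% and 1.25% in WT and 4.96% and 6.48% in Esr2-KO, with intervals of 1.49 to 1.77, 1.15 to 1.36, 4.65 to 5.30 and 6.08 to 6.90. Ces1g went the opposite way, from 2.89% and 4.96% in WT to 0.686% and 0.535% in Esr2-KO. The share of Ces2c was 28.6% and 23.2% in WT and 34.1% and 33.0% in Esr2-KO, although its CPM was lower there. The share of Ces2e stayed between 20.6% and 22.4% in the 4 libraries. The intervals cover counting error only, not the spread between libraries.

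**Figure D3:**
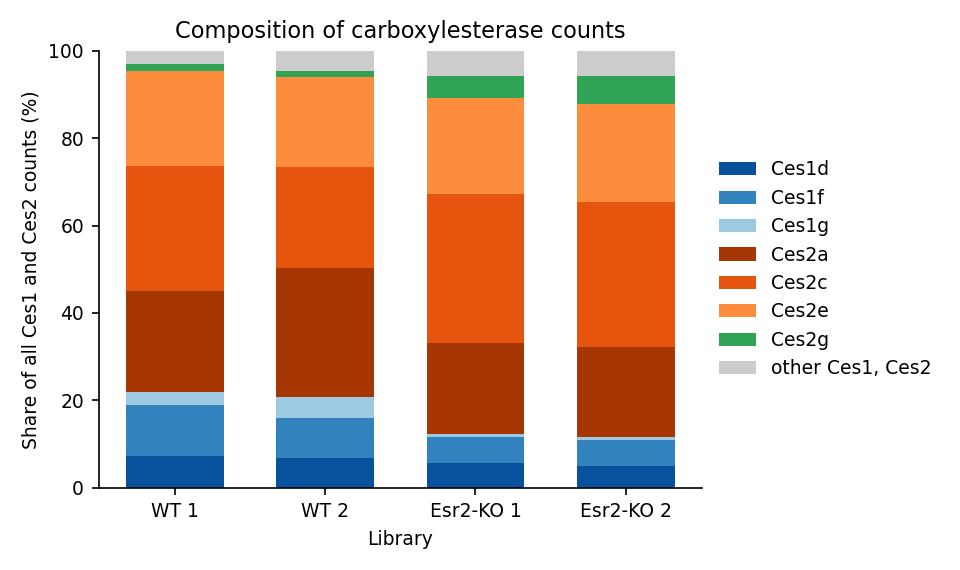
Share of all Ces1 and Ces2 counts taken by each of the 7 carboxylesterases and by the other Ces1 and Ces2 genes together (%), stacked to 100% in each library. The 7 genes took 97.0% and 95.3% in WT and 94.2% in each Esr2-KO library, with a larger Ces2g segment (4.96% and 6.48%) and a smaller Ces1g segment (0.686% and 0.535%) in Esr2-KO.

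The table held 13 further carboxylesterase symbols, of which 7 had enough counts to be tested. Of all genes tested, 1.39% passed the threshold in edgeR's quasi-likelihood test as lower and 1.30% as higher. Of these 7 carboxylesterases, 0 passed and 2 had an unadjusted p under 0.05. In edgeR's test Ces2b had an unadjusted p of 0.0464 and an adjusted p of 0.235, so unadjusted p under 0.05 were common over all genes. Their share over all genes is not given, and nothing is read from counts of them here or in the lists below. Their adjusted p ran from 0.167 to 0.911, and their median log2 fold change was -0.09. Ces1e, next to Ces1d and Ces1f in the cluster, measured 12.3 and 14.5 CPM in the WT libraries against 11.2 and 12.6 CPM in the Esr2-KO libraries, a log2 fold change of -0.17 ± 0.19. With lower Ces1 members, the share of Ces1e among Ces1 counts was 6.09% and 5.48% for WT colon but 14.4% and 16.6% for Esr2-KO colon. Ces2b, the closest relative of Ces2c with 91.3% identity of coding sequence, had counts of 340 and 1147 (WT) and of 250 and 259 (Esr2-KO). Its log2 fold change of -1.31 ± 0.53 had an adjusted p of 0.235 in edgeR, and WT 2 alone stood apart from the other 3 libraries. It passed at an adjusted p of 0.0297 without WT 1 and at 0.0104 with no filter on low counts.

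Ces1b had counts of 7 and 31 (WT) and of 66 and 67 (Esr2-KO), with a log2 fold change of 2.04 ± 0.69 and an adjusted p of 0.167 in edgeR, and passed at 0.0237 with no filter on low counts. It was the one gene of the 7 others tested whose groups did not overlap, with Esr2-KO above WT as in 27.0% of all genes. Ces1c (6 and 47 against 88 and 27 counts, adjusted p 0.475), Ces2f (2 and 20 against 28 and 15, 0.535) and Ces3a (16 and 7 against 10 and 1, 0.661) had overlapping groups. The pseudogene Ces2d-ps, with counts of 134 and 196 (WT) and of 181 and 91 (Esr2-KO), had a log2 fold change of -0.09 ± 0.34, which became positive when WT 2 (0.26) or Esr2-KO 2 (0.19) was left out. Ces1a, Ces1h, Ces2h, Ces3b and Ces5a had at most 9 counts in any library and Ces4a had 0 counts in all 4, so that differences in these 6 were not detectable at this depth.

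**Figure D4:**
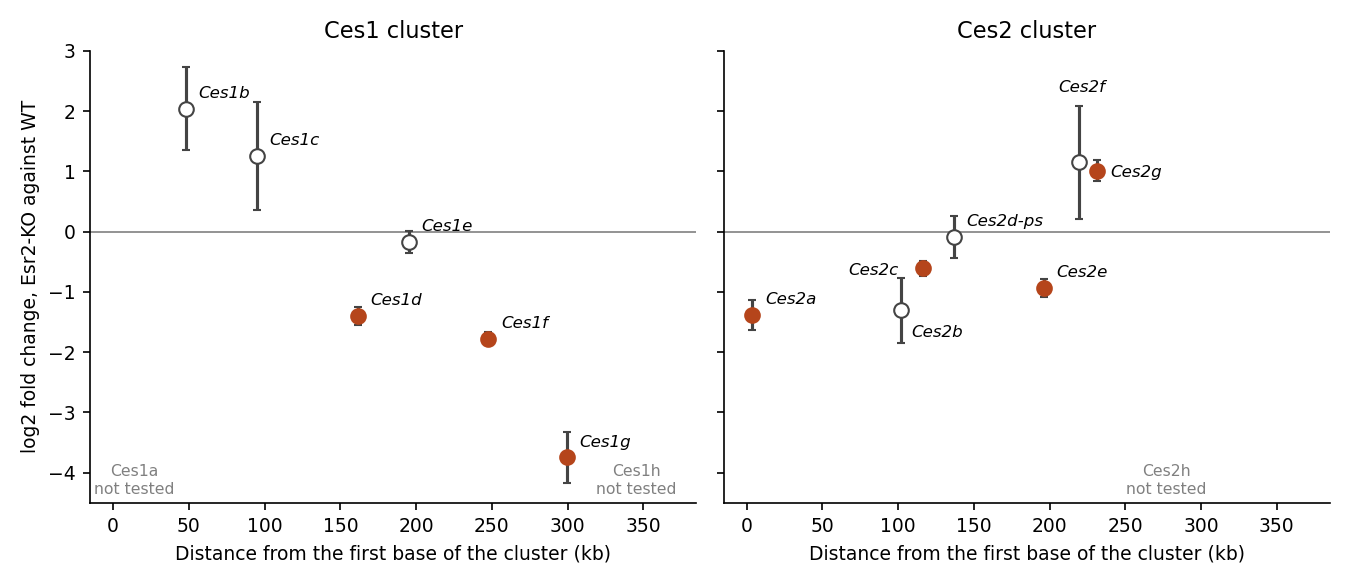
Log2 fold change of the carboxylesterase genes, Esr2-KO against WT, by distance of the gene's middle from the first base of its cluster (kb); filled points are the 7 carboxylesterases described, open points other family genes that were tested, and bars are standard errors (n = 2 per group). In the Ces1 cluster the values run from 2.04 for Ces1b to -3.74 for Ces1g. In the Ces2 cluster Ces2f, at 1.15 ± 0.94, lies between Ces2e at -0.93 and Ces2g at 1.01.

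Within a cluster, fold changes were not alike from gene to gene. Ces1e (-0.17) lies between Ces1d (-1.40) and Ces1f (-1.77), and Ces2d-ps (-0.09) lies between Ces2c (-0.61) and Ces2e (-0.93). Of all genes tested, 1.39% passed the threshold in edgeR's test as lower and 1.30% as higher. Outside the clusters, none of the 7 neighbouring genes reported here passed it. Beside the Ces1 cluster these were the acyltransferase gene Lpcat2 (-0.37 ± 0.18, edgeR adjusted p 0.307) and the matrix protease gene Mmp2 (0.25 ± 0.17, 0.441) on 1 side, at 100.9 and 166.8 kb. On the other side was the G protein subunit gene Gnao1 (-0.39 ± 0.18, 0.277), at 430.2 kb. Beside the Ces2 cluster, Fam96b (0.10 ± 0.13, 0.705) and Rrad (0.20 ± 0.30, 0.749) lay at 92.0 and 102.7 kb, and Cbfb (-0.12 ± 0.11, 0.611) and D230025D16Rik (0.04 ± 0.17, 0.922) at 149.5 and 204.0 kb. With library totals in place of TMM, the values of Fam96b and D230025D16Rik turned to -0.071 and -0.14. Without Esr2-KO 2 that of D230025D16Rik turned to -0.16. Gm8798, inside the Ces2 cluster, had a log2 fold change of -0.29 ± 0.43 (adjusted p 0.747).

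Genes that act beside the carboxylesterases were taken from lists of known function. The counts of each list, and of the marker lists below, stand beside shares of all genes tested of 1.39% lower and 1.30% higher. Both shares hold only for the fit with every library. Under other settings the number of all genes that passed moved as well, as given in the closing section. List counts under those settings are therefore not to be set against these shares. Of 39 other ester and lipid hydrolases tested, 1 passed the threshold, and their median log2 fold change was 0.04, beside -0.0031 over all genes tested. Mgll, which encodes the lipase that splits monoglycerides, had 126 and 119 CPM in the pair of WT libraries, with 64.9 and 64.8 CPM in the Esr2-KO pair (log2 fold change -0.91 ± 0.11, edgeR adjusted p 0.0200, and 0.0567 without WT 1). This list also held the pancreatic lipases, whose transcripts took its sum from 2022, 2257 and 2038 CPM in the other libraries to 57342 CPM in Esr2-KO 2. Without Esr2-KO 2, Mgll passed as lower and 3 pancreatic lipase genes (Cel, Pnlip and Pnliprp1) as higher. Without Esr2-KO 1, 6 genes passed as lower and 5 as higher, and without WT 1, 0 genes passed.

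Of 21 drug-metabolising enzymes of the endoplasmic reticulum tested, 6 fell and 2 rose, with a median log2 fold change of -0.51. Without WT 2 the count that fell was 2 (Cyp2c55 and Ugt2b36), without Esr2-KO 2 it was 7 and without Esr2-KO 1 it was 10. The cytochrome P450 gene Cyp2c55 measured 2086 and 2260 CPM in the WT libraries against 336 and 335 CPM in the Esr2-KO libraries (-2.69 ± 0.21, edgeR adjusted p 0.0125). The glucuronosyltransferase genes Ugt2b36 (-4.22 ± 0.46, 0.0196) and Ugt1a1 (-3.22 ± 0.48, 0.0296) also fell, Ugt1a1 with an adjusted p of 0.0602 without WT 2. The flavin monooxygenase gene Fmo1 rose by 1.42 ± 0.22 (0.0315, and 0.105 without WT 1). The remaining calls were Cyp2c65, Cyp2c66 and Ugt2b5, lower, and Cyp2c68, higher. Cyp2c66, with 38 and 132 counts against 2 and 0, was not called with the replicate block or with limma-voom, and Cyp2c65 and Ugt2b5 were not called without WT 1; all 3 lost the call without WT 2.

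Of 22 genes of triglyceride synthesis, lipid droplets and lipoproteins tested, 2 fell and 1 rose, with a median log2 fold change of -0.25. The count that fell was 7 without Esr2-KO 1, 3 without Esr2-KO 2 and 1 without WT 2 or with the replicate block. Lpin2, which encodes a phosphatidate phosphatase, had 82.5 and 92.8 CPM in the pair of WT libraries, with 30.3 and 25.3 CPM in the Esr2-KO pair (-1.66 ± 0.14, edgeR adjusted p 0.0126). Mogat2, which encodes the acyltransferase that rebuilds diglycerides in the gut, fell by 2.27 ± 0.37 (0.0353), and did not pass without WT 1 (0.196) or WT 2 (0.0592) or with a block on replicate number (0.0555). Plin2, which encodes a lipid droplet coat protein, rose from 81.8 and 121 CPM in WT to 245 and 271 CPM (1.35 ± 0.20, 0.0297), and just missed the threshold without WT 1 (0.050015).

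Of 24 nuclear receptors and transcription factors of drug and lipid metabolism tested, 2 fell and 1 rose, with a median log2 fold change of 0.10. The intestinal factor gene Cdx2 measured 199 and 165 CPM in the WT libraries against 60.9 and 27.9 CPM in the Esr2-KO libraries (-2.03 ± 0.34, edgeR adjusted p 0.0373). Pparg, which encodes a lipid-sensing nuclear receptor, fell by 0.75 ± 0.13 (0.0414), and Nr1h3, which encodes the oxysterol receptor LXRα, rose by 0.94 ± 0.16 (0.0364). All 3 lost the call without WT 1 (0.105, 0.118 and 0.177) and without WT 2 (0.0565, 0.115 and 0.0596). Pparg also lost it without Esr2-KO 2 (0.0832). With the replicate number as a block, Pparg (0.0570) and Nr1h3 (0.0521) did not pass, and with library totals Nr1h3 (0.0719) did not. Without WT 2, 0 genes of the list passed, and without Esr2-KO 1, 4 fell and 4 rose. Of 3 KDEL receptors, which return proteins such as carboxylesterases to the endoplasmic reticulum, 0 passed in edgeR's test and 1 had an unadjusted p under 0.05: Kdelr3 (-0.77 ± 0.22, adjusted p 0.116). Kdelr3 passed without Esr2-KO 1 (0.0139), with no filter on low counts (0.00467) and with DESeq2 (0.0133). Kdelr2 had a log2 fold change of -0.19 ± 0.13 (0.452).

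The genes whose profile over the 4 libraries was most like the median profile of the members were found among 11548 genes, by the root mean square difference of centred log2 CPM. They were Npnt (0.0574), A1cf (0.0740), Gt(ROSA)26Sor (0.0784), Tlr2 (0.0832) and Tfpi2 (0.0929). The likeness rests on 4 libraries that share their depth and scaling, and is a description. A1cf, which encodes a cofactor of apolipoprotein B mRNA editing, had 43.0 and 57.3 CPM in the pair of WT libraries, with 23.4 and 22.3 CPM in the Esr2-KO pair. As for Ces2a, Ces2e and Ces1d, WT 2 was the higher WT library and the Esr2-KO libraries lay close together.

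Several marker lists moved with the carboxylesterases, and their part in these results was not tested. Sums are given for both WT libraries and then for both Esr2-KO libraries. Epithelial markers summed to 8092 to 8733 CPM in WT and 9618 to 9758 CPM in Esr2-KO. All 8 were tested, with 0 past the threshold in edgeR's test and 1 at an unadjusted p under 0.05. Of the 8, 7 had a positive log2 fold change and 1 a negative one. Krt8 took the largest part of the sum (3701 and 3322 CPM in WT, 3971 and 4037 CPM in Esr2-KO). Epcam had 1367 and 1376 CPM in WT, with 1445 and 1328 CPM in Esr2-KO. Colonocyte markers summed to 13625 and 16245 CPM in WT, against 10269 and 9086 CPM, and 2 of 14 tested fell, Car1 (adjusted p 0.0469) and Guca2b (0.0349). Car1 lost the call without Esr2-KO 2, with the replicate block and with a minimum of 1 CPM in 2 libraries, and Guca2b without WT 1 and without WT 2. Other colonocyte markers went the other way, and 6 of 14 had a positive log2 fold change. In 4 of the 14 both Esr2-KO libraries lay above both WT libraries, and in 7 below them. Of all genes tested, 27.0% lay above in this way and 27.7% below. Car4 had 546 and 685 CPM in WT, with 1156 and 1348 CPM for the knockouts (log2 fold change 1.02 ± 0.21, adjusted p 0.0596), and Car1 went from 3002 and 6491 CPM to 1112 and 1082 CPM, a large part of the lower sum. Small intestinal enterocyte markers summed to 1185 and 1409 CPM in WT, against 614 and 395 CPM. Of the 11 tested, 8 had a negative log2 fold change and 3 a positive one. Slc5a1 had 58.7 and 77.7 CPM in WT, with 115 and 114 CPM in the knockouts (edgeR adjusted p 0.0579). Rbp2 (log2 fold change 0.73 ± 0.15) and Anpep (0.89 ± 0.33) were also higher in Esr2-KO. Enpep fell (adjusted p 0.0313), a call lost without either WT library and with the replicate block. Fabp2 had 717 and 826 CPM in WT, with 166 and 19.9 CPM in the knockouts (adjusted p 0.115), and Alpi 20.6 and 32.8 CPM, with 3.98 and 0.266 CPM (0.0850). Slc10a2, the ileal bile acid transporter gene, had 7.68 and 82.0 CPM in WT, with 3.10 and 1.63 CPM (0.0896). Sis had 12.6 CPM in WT 2 and 0.275 CPM or less in the other libraries, and was too low to be tested. WT 2 thus held the highest level of each of these 4 genes. Apoa1, Apoa4, Lct and Treh stood at 1.06 CPM or less in every library.

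Distal gut homeobox genes summed to 99.5 and 201 CPM in WT, against 811 and 921 CPM. Both Esr2-KO libraries lay above both WT libraries in 6 of 6, beside 27.0% of all genes tested. Hoxb13 (adjusted p 0.0257) and Hoxd12 (0.0135) passed the threshold, and 5 of 6 genes did without WT 1, without WT 2 or without Esr2-KO 1. Hepatocyte markers, of a tissue rich in Ces1 enzymes, summed to 110 and 174 CPM in WT, against 277 and 241 CPM. Ttr, which other tissues also express, rose (adjusted p 0.0210). Alb stood at 1.33 to 4.89 CPM, and the defining genes Fga, Fgb and Serpina1a stood at 0.259 CPM or less. Adipocyte markers, of another tissue that makes Ces1d, summed to 365 and 704 CPM in WT, against 638 and 304 CPM, with overlapping groups and 0 of 10 past the threshold or at an unadjusted p under 0.05. Without Esr2-KO 1, 4 of 10 passed as lower. Macrophage markers summed to 380 to 387 CPM in all 4 libraries, with 0 of 8 past the threshold and 3 at an unadjusted p under 0.05.

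**Figure D5:**
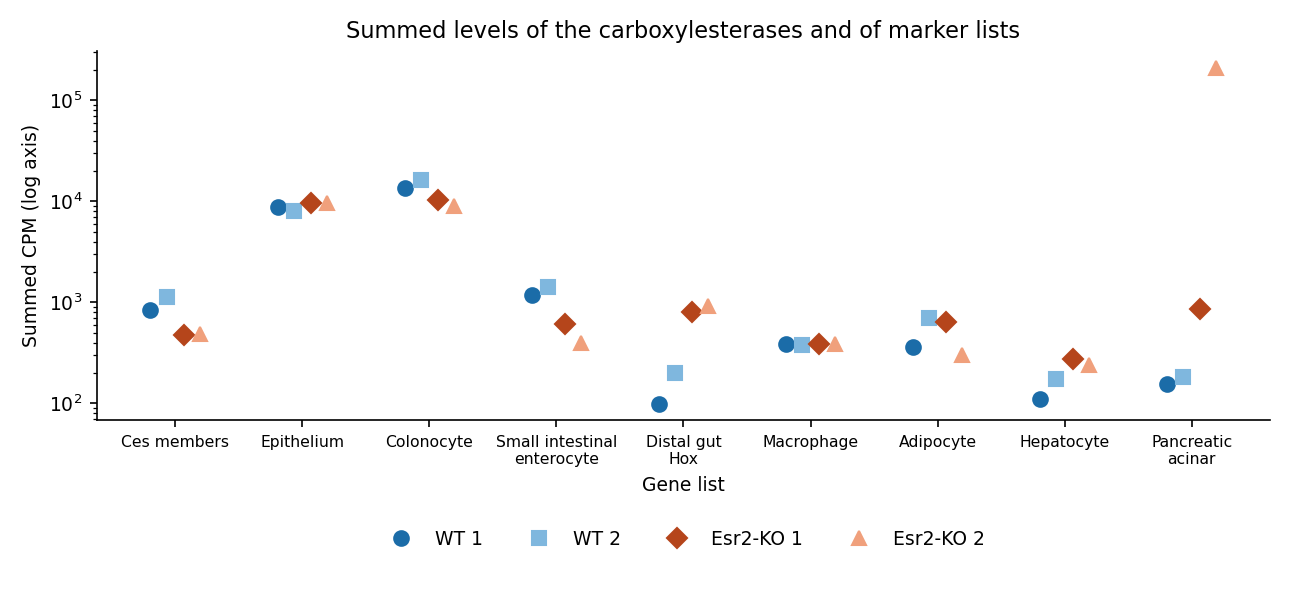
Summed CPM (log axis) of the 7 carboxylesterases and of 8 marker lists in each of the 4 libraries. The carboxylesterases, the colonocyte list and the small intestinal enterocyte list lie lower in both Esr2-KO libraries. The epithelium, hepatocyte, distal gut homeobox and pancreatic acinar lists lie higher in both, and the acinar list reaches 211890 CPM in Esr2-KO 2. The adipocyte list overlaps, and the macrophage list lies at 380 to 387 CPM in all 4 libraries.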

How the data were processed

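Total RNA of colon was sequenced in 4 libraries. The table that the authors deposited holds raw counts for each gene symbol, with no normalization, as its values show. Reads were aligned with HISAT2 to mm10, per the submitters' processing notes. The sources used here give no counting program, annotation or strand setting. Library totals were 33709643, 33329655, 32986548 and 30826790 counts.

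Genes were kept with filterByExpr (minimum count 10, minimum total 15), scaled by TMM and fitted with edgeR (4.0.16; R 4.3.3; quasi-likelihood, two-sided, Benjamini-Hochberg adjustment over 17169 genes, threshold 0.05, 2 residual degrees of freedom). The procedure was tested on simulated data. Replicates differed by more than sampling noise (chi-square per degree of freedom 42.7 in WT, 519 in Esr2-KO). Both values rest on raw counts and include the acinar genes, which were far higher in Esr2-KO 2. The Esr2-KO value therefore does not give the spread of typical genes or of the members. Levels per kb use the length of 1 representative GENCODE M21 transcript. Sequences were aligned with Biopython 1.88.

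The members and lists were chosen with earlier results of these data known. Named were the members, the other carboxylesterases with a count, Esr2, up to 4 passing genes of each list with the smallest p or otherwise 2, 2 tested neighbours on each side of each cluster (1 is not reported here), and the 5 most alike profiles among genes with a mean log2 CPM of at least 2. Marker genes, list members given only as calls and the pseudogenes that share sequence with a member were named beyond this rule, after their values were seen.

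Alternatives were DESeq2 size factors or library totals, no filter, a minimum of 1 CPM in 2 libraries, limma-voom (3.58.1) or DESeq2's Wald test (1.42.0), a replicate block, each library left out, and acinar genes left out.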

Additional observations from a re-analysis of the deposited data

How the results depend on the processing

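Over the 13 alternatives, 0 of 91 member values turned direction, and 9 moved by at least the within-group SD of log2 CPM. The members were chosen on this comparison, and the groups of each member do not overlap. Leaving out a library could therefore hardly turn a direction, and no support is drawn from the absence of turns. Leaving out WT 2 moved all 6 lower members towards a smaller difference, with a median of -0.91 over the 7 members. The 462 genes past the threshold became 695 with library totals, 1916 with no filter on low counts and 1693 with DESeq2, and 165 to 1804 with each library left out in turn; leaving out WT 1 gave the lowest count and leaving out Esr2-KO 1 the highest. Same-numbered libraries did not deviate together (r = -0.0641 over 17169 genes, and -0.136 over 12139 genes with a mean log2 CPM of at least 2). With only 2 libraries of each genotype, this cannot tell whether the numbers pair the samples. With the replicate block 490 genes passed, and 6 members passed as without it. The crossed pairing, added after the data were seen, gave 814 genes and 7 members. Ces2c passed with no filter, DESeq2, limma-voom and the crossed pairing. Leaving out each library in turn gave -1.55 to -1.21 for Ces1d, -1.83 to -1.70 for Ces1f, -4.23 to -2.99 for Ces1g, -1.72 to -0.91 for Ces2a, -0.68 to -0.52 for Ces2c, -1.10 to -0.72 for Ces2e and 0.79 to 1.21 for Ces2g. With each library left out in turn, log2 fold changes that turned direction ran from -0.43 (without Esr2-KO 1) to 0.26 (without WT 2) for Ces2d-ps, from -1.42 (without Esr2-KO 2) to 0.35 (without Esr2-KO 1) for Esr2 and from -0.16 (without Esr2-KO 2) to 0.22 (without Esr2-KO 1) for D230025D16Rik. With library totals Fam96b turned to -0.071 and D230025D16Rik to -0.14, where the median of all genes lay at -0.17. None of these genes passed the threshold under any of these settings. The cause of these shifts was not tested. With a library left out, the lone library of its group is assumed to vary like the other group.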
